A study of Mus musculus with 6 samples.

Results

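Collagen chain genes were examined in whole uteri of female mice on postnatal day 21. The members were all listed genes whose symbol is Col, a number, the letter a and a number, which gave 44 of 20637 genes. They comprise 11 fibrillar chains, 6 chains of basement membrane type IV, 9 fibril-associated chains with interrupted helices (FACIT) and 18 others. Poly(A) RNA was sequenced in 3 libraries of floxed controls (Nat10 f/f) and 3 libraries of the Nat10-deleted genotype (Nat10 d/d). Tissue, sex and age are the same in both groups. The labels name no Cre driver, deleted exon or target cell, and do not say whether each library came from a separate animal, so p-values measure only the spread between these libraries.

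Collagens are trimers of alpha chains that wind around each other through long stretches with regularly spaced glycines. Fibrillar chains build the cross-banded fibres that give tissue its tensile strength, type IV chains build the sheet under epithelia and around muscle and vessels, and FACIT chains sit on the surface of fibres. In the uterus, fibroblasts of the endometrial stroma are a main source of fibrillar chains, and smooth muscle, endothelium and epithelium each contribute basement membrane.

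Nat10 (ENSMUSG00000027185), which encodes an RNA cytidine acetyltransferase, had values of 13.2, 16.4 and 9.95 FPKM (read abundance per gene length and library depth) in controls and 5.57, 5.23 and 5.53 in deleted uteri. The groups did not overlap, and the log2 change was -1.11. Relative sequencing depth, read from the lowest values, differed by at most 1.26 times between libraries, and absolute depth is unknown. All tests used limma on log2(FPKM + 1), and every log2 change below is on that scale, which understates changes of low genes. Nat10-deleted replicate 2 stood apart from the other deleted libraries in most abundant collagens and in proliferation markers. The log2 changes of collagens are therefore also given without it where that moves them by over 1.5 times. Replicate 2 was singled out after the values had been seen, so results without it are description and no test of the groups. The summed level of 20 proliferation markers was 651 FPKM in replicate 2, against 142 and 98.7 in Nat10-deleted replicates 1 and 3 and 167 to 278 in controls. Replicates 1 and 3 thus lay below the control range in that sum. They also differed from each other, with limma quality weights of 3.74 and 0.451, against 0.224 for replicate 2.

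With all libraries at equal weight, no collagen chain passed an adjusted p of 0.05 between the groups, and the background was 0.0% of the 12640 genes tested. The deleted libraries did not act as a group. Most abundant collagen chains were lower than every control in Nat10-deleted replicates 1 and 3 and as high as or higher than the controls in replicate 2. Summed over the 44 chains, values were 4560, 4002 and 4571 FPKM in controls, and 2746, 5193 and 2610 in the deleted libraries in the order of their numbers. Collagens thus made up 0.783% to 0.913% of all summed values in controls, while Nat10-deleted replicates 1 and 3 had 0.51% and 0.507% and replicate 2 had 0.946%. In whole tissue, fewer cells of a type and less RNA per cell cannot be told apart.

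Of the 44 chains, 33 passed the filter on low values, which asked for at least 1 FPKM in at least 3 libraries. On average 29 of these 33 were lower in deleted uteri and 4 were higher, where 43.4% of all genes tested were lower. Without Nat10-deleted replicate 2 it was 30 of 33, with a background of 45.9%. Their median log2 change was -0.31, against 0.03 over all genes tested. Correction for GC content and transcript length brought the collagen median to -0.18. The tested chains had a median GC content of 56.1% and a median transcript length of 6119 bases, against 49.9% and 3431 bases over all genes tested. At an unadjusted p under 0.05 there were 5 chains, all lower and none higher. The background at that level was 4.98% of all genes tested, 2.3% lower and 2.68% higher. That count was 20, again all lower, without Nat10-deleted replicate 2, where the background was 13.7% in either direction and 6.57% lower. Leaving out control replicate 1, 2 or 3 gave 2, 3 or 4 chains, against 359, 472 or 353 of the 12640 genes tested (630 with all libraries). Leaving out Nat10-deleted replicate 1 or 3 gave 2 or 6 chains, against 352 or 1403 genes. Array quality weights gave 22 chains (3730 genes), quantile normalization 8 (673) and the GC and length correction 3 (539).

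Every deleted library lay below every control for 4 of the 33 chains (background 4.6%), and for none did every deleted library lie above (background 6.12%; 10.7% in either direction). Without Nat10-deleted replicate 2, 20 of the 33 lay below every control (background 14.4%), none lay above (17.4%), and the median log2 change was -0.47. Replicate 2 was the highest of the 6 libraries in 13 of the 33 chains (background 30.1%). In 10 chains Nat10-deleted replicates 1 and 3 were below every control while replicate 2 was above every control, where 6.77% of all genes tested showed this arrangement. Without replicate 2, limma called 3 of the 33 chains at an adjusted p of 0.05 (background 0.0949%). These were Col1a1, Col15a1 and Col6a2. The calls follow from a choice made after the values had been seen, and are description only. As a median over the 33 chains, the log2 standard deviation of the deleted group was 2.21 times the control one, against 1.73 over all genes tested.

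**Figure D1:**
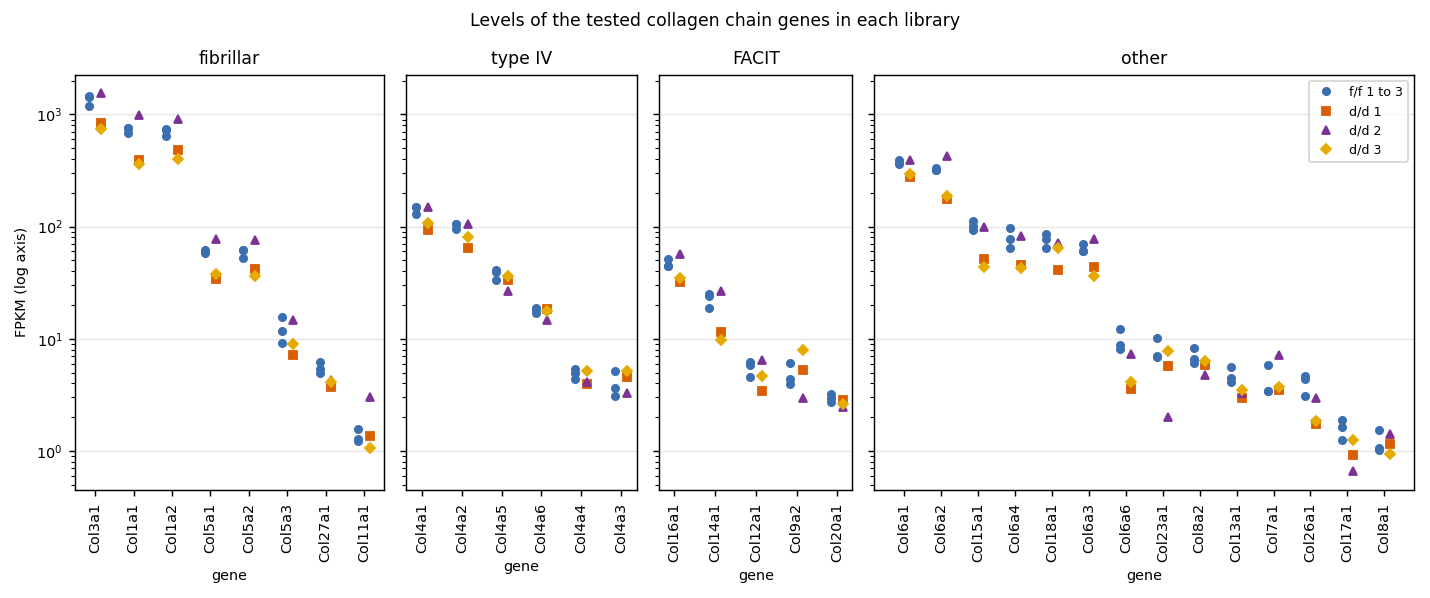
FPKM (log axis) of the 33 tested collagen chain genes in each of the 6 libraries, by class and ordered by control mean; f/f is floxed control and d/d is Nat10-deleted. For Col3a1, Col1a1, Col1a2, Col5a1, Col5a2, Col6a2 and Col6a3, d/d 1 and d/d 3 lie under the 3 control points and d/d 2 lies over them, while for Col5a3 and Col6a4 d/d 2 lies within the control range.

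The fibrillar class was dominated by 3 chains, which together held 62.5% to 64.9% of the summed collagen values in controls. Col3a1, the chain of type III collagen found in distensible tissues, was the most abundant collagen gene. Its values were 1447, 1181 and 1420 FPKM in controls and 840, 1541 and 746 in deleted uteri. Replicates 1 and 3 of the deleted group were thus under the lowest control and replicate 2 was over the highest. Its difference on the log2 scale was -0.44 (SE 0.27, with 0.923 as the adjusted p in limma), and leaving out single libraries gave -0.76 (Nat10-deleted replicate 2) to -0.24 (replicate 3).

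Col1a1 and Col1a2 encode the partner chains of type I collagen. Col1a1 had values of 765, 677 and 750 FPKM in controls and 394, 984 and 361 in deleted uteri. The deleted values split around the controls, with a mean of 51.6% of the control mean in replicates 1 and 3 and a value of 135% in replicate 2. With all libraries the log2 difference was -0.49 (SE 0.36, with 0.926 as the adjusted p in limma). Without Nat10-deleted replicate 2 it was -0.95, with an adjusted p in limma of 0.0355, which ran from 0.0355 to 1 across the settings tried. Leaving out replicate 1 or 3 of the deleted group instead gave -0.29 or -0.23. Col1a2 followed the same order, at 746, 641 and 727 in controls and 487, 916 and 401 in deleted uteri, with a log2 change of -0.32. That value rests on single libraries, since it became -0.21, -0.67 or -0.07 if Nat10-deleted replicate 1, 2 or 3 was left out.

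Type V collagen, which nucleates type I fibres and limits their width, is encoded by Col5a1, Col5a2 and Col5a3. Col5a1 was 62.4, 57.9 and 60 FPKM in controls and 33.9, 77.8 and 37.5 in deleted uteri. Col5a2 was 61.7, 52.3 and 62 in controls and 41.7, 75.3 and 36.2 in deleted uteri. For both genes the 3 controls lay close together while the deleted libraries fell on either side of them. Col5a1 had a log2 change of -0.37, and leaving out Nat10-deleted replicate 1, 2 or 3 gave -0.15, -0.74 or -0.22, and the GC and length correction -0.19. Col5a2 had one of -0.27, and the same omissions gave -0.16, -0.58 or -0.06. Col5a3 varied more among controls (9.14, 11.6 and 15.7), with 7.13, 14.7 and 9.03 in deleted uteri and a log2 change of -0.25, which was -0.04 if Nat10-deleted replicate 1 was left out, -0.51 if replicate 2 was, -0.42 and -0.06 if control replicate 1 or 3 was, and -0.06 with the GC and length correction.

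Col27a1, a fibrillar chain known from cartilage and found at low level here, was the fibrillar gene whose groups did not overlap. Its values were 6.15, 5.34 and 4.97 FPKM in controls and 3.7, 4.28 and 4.16 in deleted uteri. Unlike the abundant fibrillar chains, it was also below the controls in Nat10-deleted replicate 2. Its log2 change was -0.36 (SE 0.13; unadjusted p 0.0246, adjusted p in limma 0.923). The unadjusted p was 0.104 and 0.0532 when control replicate 1 or 2 was left out, and 0.0727 when Nat10-deleted replicate 1 was. The correction for GC and length gave a change of -0.18, with an unadjusted p of 0.229. Col11a1, a partner of fibrillar chains in cartilage, had 1.22 to 1.57 in controls, 3.02 in Nat10-deleted replicate 2, and 1.36 and 1.07 in replicates 1 and 3.

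Over the 8 tested fibrillar chains, 7 were lower on average (background 43.4%) and the median log2 change was -0.34, or -0.62 without Nat10-deleted replicate 2 and -0.20 with the GC and length correction. Set against the mean of the controls, the median fibrillar chain stood at -0.60, 0.36 and -0.67 (log2) in the deleted libraries, by number, and between -0.08 and 0.08 in the controls. The log2 standard deviation of the deleted group was 4.31 times the control one in fibrillar chains and 4.29 times in type VI chains, as medians. In 5 of the 8, replicates 1 and 3 lay below and replicate 2 above every control (background 6.77%).

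**Figure D2:**
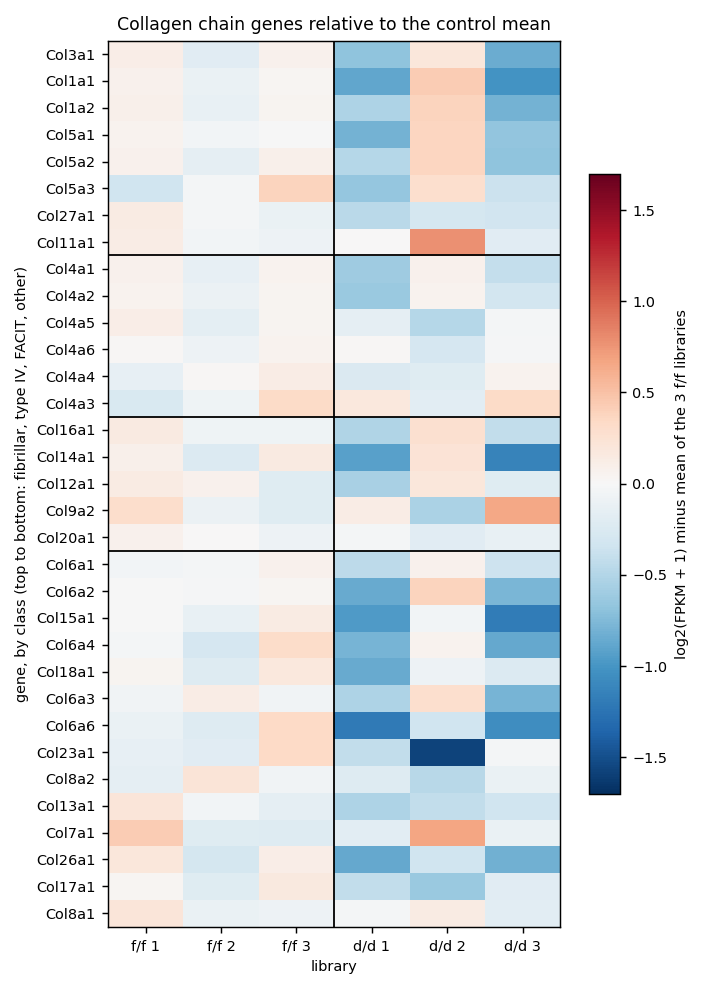
Log2(FPKM + 1) of each tested collagen chain gene in each library minus the mean of the 3 floxed controls, by class. Blue in d/d 1 and d/d 3 beside red in d/d 2 marks most fibrillar chains, while Col27a1, Col13a1 and Col26a1 are blue in all 3 deleted libraries.

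Col3a1 lies on the forward strand of chromosome 1 in GRCm38 (the build named mm10 in the processing notes), with Col5a2 as its nearest protein-coding neighbour, 24614 bases away and transcribed towards it. The 250 bases before the start of Col3a1 (RefSeq, GRCm38.p6, chr1:45311288-45311537, forward strand) are shown because it is the most abundant member, with capitals marking a TATAAA match whose first letter lies 117 bases before the start.
Col3a1: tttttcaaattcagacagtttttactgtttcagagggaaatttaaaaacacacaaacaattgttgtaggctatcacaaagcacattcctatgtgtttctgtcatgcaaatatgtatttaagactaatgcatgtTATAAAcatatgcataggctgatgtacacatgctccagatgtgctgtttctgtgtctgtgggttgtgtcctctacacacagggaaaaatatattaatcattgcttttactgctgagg

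RefSeq promoter windows were matched for 35 of the 44 members, with 38 windows in all because some genes have several starts. A TATA box core, a CCAAT box and a GC box core were searched on both strands in the 250 bases before each start. The TATA letters (TATAAA) stood in 5 of the 38 windows (13.2%), against 12.4% of the 32851 windows of all genes. CCAAT stood in 13 (34.2%), against 33.8%. GGGCGG, the core of a GC box, stood in 22 (57.9%), against 32.7%. These are matches of letters, not shown sites.

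Type VI collagen forms beaded filaments that link cells to the surrounding fibres. All 5 tested type VI chains were lower on average, with a median log2 change of -0.42, and -0.82 without Nat10-deleted replicate 2. In Nat10-deleted replicates 1 and 3 each of the 5 lay below every control (background 14.4%). Col6a2 had 322, 318 and 331 FPKM in controls, the narrowest range relative to the mean among the 18 chains with a control mean of at least 10, and 178, 423 and 188 in deleted uteri. Replicates 1 and 3 had a mean of 56.6% of control and replicate 2 stood at 131%. The difference was -0.42 (log2, SE 0.31), and -0.82 without Nat10-deleted replicate 2, where the adjusted p in limma was 0.036 and ran from 0.036 to 1 across the settings tried. Leaving out replicate 1 or 3 of the deleted group instead gave -0.20 or -0.24.

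Col6a1, whose chain pairs with that of Col6a2, had a smaller difference. It stood at 365, 367 and 395 FPKM in controls and 276, 394 and 293 in deleted uteri, with a log2 change of -0.24, or -0.14 and -0.40 if Nat10-deleted replicate 1 or 2 is left out. Col6a3, the large chain that carries the endotrophin domain, had 60.8, 69.5 and 61 in controls and 43.9, 78.1 and 36.5 in deleted uteri, with a log2 change of -0.34, or -0.65 and -0.12 if Nat10-deleted replicate 2 or 3 is left out and -0.19 with the GC and length correction. Its deleted libraries again lay on both sides of the controls. Col6a4 had 76.9, 64.6 and 97.7 in controls and 45.1, 81.7 and 42.5 in deleted uteri (log2 change -0.54, or -0.83 if replicate 2 is left out), so that replicate 2 was within the control range.

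Col6a6 had the lowest log2 change of the 33 tested chains and its groups did not overlap. Its values were 8.74, 8.03 and 12.3 FPKM in controls and 3.57, 7.33 and 4.09 in deleted uteri, or 51.5% of control on average. All 3 deleted libraries were under the lowest control, replicate 2 by the smallest margin. Its log2 change was -0.87 (SE 0.25; unadjusted p 0.01, adjusted p in limma 0.923). Leaving out single libraries gave changes of -1.13 to -0.70, and the unadjusted p was at most 0.0401 in the alternatives run.

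The 6 type IV chains are encoded by pairs of neighbouring genes that are transcribed away from each other. Col4a1 and Col4a2, which make the network present in nearly all basement membranes, lie on chromosome 8, and their annotated spans overlap by 22 bases at the starts. Without strand information, reads from these 22 bases cannot be told apart. Col4a1 had 149, 128 and 148 FPKM in controls and 92.9, 149 and 107 in deleted uteri, a log2 change of -0.31 (SE 0.18). Col4a2 had 106, 94.6 and 105 in controls and 64.9, 106 and 81.4 in deleted uteri, a log2 change of -0.30 (SE 0.18). Both were below every control in Nat10-deleted replicates 1 and 3 and level with the highest controls in replicate 2. Leaving out single libraries gave -0.50 to -0.17 for Col4a1 and -0.48 to -0.13 for Col4a2, with the lowest value of each when Nat10-deleted replicate 2 was left out and the highest when replicate 1 was. The GC and length correction gave -0.16 and -0.12.

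Col4a5 and Col4a6 encode partner chains found in the basement membrane of smooth muscle and some epithelia, and lie on the X chromosome with 1308 bases between them. Col4a5 had 40.9, 33.4 and 39 FPKM in controls and 33.7, 26.5 and 36.6 in deleted uteri, a log2 change of -0.23, or -0.10 if replicate 2 is left out and -0.15 with the GC and length correction. Col4a6 had 18.3, 17 and 18.9 in controls and 18.4, 14.6 and 17.8 in deleted uteri, a log2 change of -0.09, or 0.00 if replicate 2 is left out and 0.01 with that correction. In this pair Nat10-deleted replicate 2 was the lowest library and replicates 1 and 3 lay within the control range, the reverse of the order seen for Col4a1 and Col4a2. The ratio of Col4a1 to Col4a5 was 3.65 to 3.85 in controls, while Nat10-deleted replicates 1 and 3 had 2.76 and 2.92 and replicate 2 had 5.6. That ratio was formed after the values had been seen.

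Col4a3 and Col4a4, chains best known from the kidney glomerulus and partners of Col4a5 there, were low. Col4a3 ranged from 3.08 to 5.11 FPKM in controls and from 3.28 to 5.11 in deleted uteri, and Col4a4 from 4.35 to 5.42 and from 3.96 to 5.13. The groups overlapped for both genes, although 2 of the 3 deleted libraries were under the lowest control for Col4a4. Over the 6 type IV chains the median log2 change was -0.18, with 5 lower and 1 higher on average. It was -0.10 without Nat10-deleted replicate 2 and -0.07 with the GC and length correction. The bases between the starts of Col4a4 and Col4a3 are shown as the shortest gap between divergent collagen genes (71 bases, chr1:82586850-82586920, GRCm38.p6, reverse strand, from RefSeq). None of the searched motifs is in them, so none is in capitals.
Col4a4-Col4a3: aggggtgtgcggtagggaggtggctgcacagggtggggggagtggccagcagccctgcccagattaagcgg

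FACIT chains divided by abundance. Col14a1, which encodes a chain that decorates fibres in loose connective tissue, had 23.9, 19 and 25.2 FPKM in controls and 11.4, 26.7 and 9.69 in deleted uteri. Its mean in Nat10-deleted replicates 1 and 3 was 46.6% of control, and replicate 2 lay over the highest control. On the log2 scale it differed by -0.61 (SE 0.34), and by -1.03 without Nat10-deleted replicate 2, where the adjusted p in limma was 0.0724 and ran from 0.044 to 1 across the settings tried. It differed by -0.34 without Nat10-deleted replicate 3. Col16a1 had 51.7, 44.1 and 44.2 in controls and 32.2, 56.7 and 34.6 in deleted uteri, with a log2 change of -0.22, or -0.07, -0.47 or -0.12 if Nat10-deleted replicate 1, 2 or 3 is left out, -0.14 if control replicate 1 is, and -0.06 with the GC and length correction. Both thus shared the order of libraries seen for the fibrillar chains.

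The other 3 tested FACIT chains were low and overlapped between groups. Col12a1 ranged from 4.61 to 6.14 FPKM in controls and from 3.45 to 6.43 in deleted uteri. Col9a2, a chain of cartilage type IX collagen, ranged from 3.96 to 6.09 and from 2.95 to 8.01, and was lowest in Nat10-deleted replicate 2. Col20a1 ranged from 2.74 to 3.19 and from 2.47 to 2.86. Over the 5 tested FACIT chains the median log2 change was -0.19, with 4 lower and 1 higher. Leaving out Nat10-deleted replicate 2 gave a median of -0.38, with 2 chains at an unadjusted p under 0.05 (background 13.7%), and the GC and length correction gave -0.06.

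**Figure D3:**
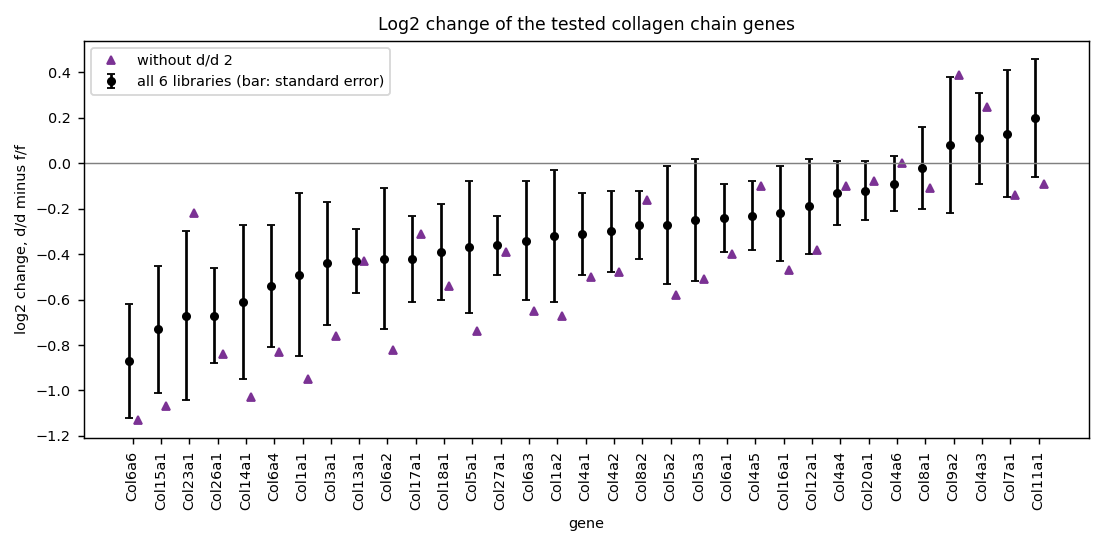
Log2 change (deleted minus control, on log2(FPKM + 1)) of the 33 tested chains with all 6 libraries (circles, bars are standard errors) and without d/d 2 (triangles). Col1a1 lies at -0.49 with all libraries and -0.95 without d/d 2, while Col13a1 lies at -0.43 in both.

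Multiplexin chains, which lie at the border of basement membranes and release fragments with effects on vessels, are encoded by Col15a1 and Col18a1. Col15a1 had 101, 92.5 and 111 FPKM in controls and 51.6, 98.4 and 43.9 in deleted uteri. Nat10-deleted replicates 1 and 3 were thus well under every other library, and replicate 2 was within the control range. Its log2 change was -0.73 (SE 0.28; unadjusted p 0.0323, adjusted p in limma 0.923). Without Nat10-deleted replicate 2 it was -1.07, with an adjusted p in limma of 0.0355 that ran from 0.0355 to 1 across the settings tried. The unadjusted p was 0.055 to 0.107 when any other library was left out and 0.0758 with the GC and length correction. The 250 bases before its start (RefSeq, GRCm38.p6, chr4:47207762-47208011, forward strand) are shown because it had the largest change among the abundant chains. They hold none of the searched motifs and have no capitals.
Col15a1: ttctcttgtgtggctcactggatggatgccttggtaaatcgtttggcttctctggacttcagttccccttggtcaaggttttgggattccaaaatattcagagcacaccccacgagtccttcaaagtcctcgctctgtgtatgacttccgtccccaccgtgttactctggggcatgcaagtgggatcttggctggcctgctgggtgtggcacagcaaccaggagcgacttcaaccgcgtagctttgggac

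Col18a1, the source of endostatin, had 77.8, 64.7 and 86 FPKM in controls and 41.4, 71.3 and 64.3 in deleted uteri, a log2 change of -0.39, or -0.16 if Nat10-deleted replicate 1 is left out and -0.23 with the GC and length correction. The annotation places a protein-coding gene on the opposite strand of Col18a1, and the strand setting is not given in the sources used here, so its value is uncertain. The ratio of Col15a1 to Col18a1, also formed after the values had been seen, was 1.29 to 1.43 in controls, against 1.24, 1.38 and 0.683 in the deleted libraries by number. The multiplexins therefore parted in replicate 3, where Col15a1 was low and Col18a1 was just under the lowest control.

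Col13a1 and Col26a1 were lower in all 3 deleted libraries. Col13a1, a transmembrane chain of cell-matrix contacts, had 5.57, 4.5 and 4.12 FPKM in controls and 2.96, 3.25 and 3.52 in deleted uteri, or 68.5% of control. Its deleted libraries lay closer together than its controls. On the log2 scale it differed by -0.43 (SE 0.14; unadjusted p 0.0193, adjusted p in limma 0.923), and leaving out single libraries gave -0.51 to -0.33. The unadjusted p was 0.086 without control replicate 1 and 0.0592 without Nat10-deleted replicate 1. Col26a1, a secreted chain described in testis and ovary, had 4.7, 3.09 and 4.39 in controls and 1.75, 2.97 and 1.84 in deleted uteri, or 53.9% of control. Nat10-deleted replicate 2 lay just under the lowest control. Its log2 change was -0.67 (SE 0.21; unadjusted p 0.0124, adjusted p in limma 0.923), and the unadjusted p was at most 0.0499 in the alternatives run.

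The 250 bases before the start of Col13a1 (RefSeq, GRCm38.p6, chr10:61979109-61979358, reverse strand) are shown because its groups did not overlap and replicate 2 did not stand apart. Capitals mark a TATAAA match whose first letter lies 237 bases before the start.
Col13a1: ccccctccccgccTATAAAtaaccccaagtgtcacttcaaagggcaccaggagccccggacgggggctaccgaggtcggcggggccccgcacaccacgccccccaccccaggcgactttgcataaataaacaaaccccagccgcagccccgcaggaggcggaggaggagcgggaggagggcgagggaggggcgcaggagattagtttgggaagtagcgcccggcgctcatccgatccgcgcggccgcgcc

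The other tested transmembrane chains were lowest in Nat10-deleted replicate 2. Col23a1 had 7.06, 6.82 and 10.2 FPKM in controls and 5.67, 2.01 and 7.74 in deleted uteri. Its log2 change of -0.67 was -0.22 without that library. Col17a1, the hemidesmosome collagen of epithelia, had 1.24 to 1.89 in controls and 0.923, 0.659 and 1.26 in deleted uteri. Of the remaining tested chains, Col8a2 had 6.1 to 8.26 in controls and 4.73 to 6.36 in deleted uteri, and Col8a1 1.02 to 1.53 and 0.932 to 1.42. Col7a1, which builds anchoring fibrils, had 3.4 to 5.86 in controls and was highest in Nat10-deleted replicate 2 (7.14).

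Among the tested collagen chains, abundance and the position of Nat10-deleted replicate 2 went together. These positions were not counted by abundance over all genes tested, so the pattern is not shown to be particular to collagens. Of the 18 chains with a control mean of at least 10 FPKM, replicate 2 was above every control in 10, within the control range in 6 and below it in 2. Among the 15 tested chains under that level it was above in 3, within in 2 and below in 10. Nat10-deleted replicates 1 and 3 were below every control in 16 of the 18 abundant chains and in 4 of the 15 others, where 14.4% of all genes tested were. The exceptions among the abundant chains were Col4a5 and Col4a6.

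In the order of control levels, per gene length, Col3a1 led, followed by Col1a1 and Col1a2, then Col6a1 and Col6a2. Neighbours in this order were further apart than the sum of their standard deviations in 10 of the 17 steps among the 18 abundant chains. Col1a1 (731 ± 47 FPKM, SD, n = 3) and Col1a2 (705 ± 55.6, SD, n = 3) were not, nor were the 6 successive steps from Col4a2 through Col15a1, Col6a4, Col18a1, Col6a3 and Col5a1 to Col5a2. The share of type IV in the summed collagen values was 7.03% to 7.05% in controls, while Nat10-deleted replicates 1 and 3 had 7.95% and 9.69% and replicate 2 had 5.83%. Fibrillar chains held 65.7% to 68% in controls, against 65.9%, 69.6% and 61.2% in the deleted libraries by number.

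Pairs of chain genes, most of them partners in a trimer, were compared within each library as ratios of FPKM. Col4a1 to Col4a2 was the steadiest, at 1.36 to 1.42 in controls and 1.31 to 1.43 in deleted uteri, although the level of both genes differed between libraries. Col1a1 to Col1a2 was 1.03 to 1.06 in controls, with 0.808, 1.07 and 0.9 in Nat10-deleted replicates 1, 2 and 3. The lower type I level of replicates 1 and 3 thus went with proportionally less Col1a1 than Col1a2. Col6a1 to Col6a2 was 1.13 to 1.19 in controls, with 1.55, 0.933 and 1.56 in Nat10-deleted replicates 1, 2 and 3. The deleted ratios lay outside the control range on both sides, so the group means of 1.16 ± 0.031 and 1.35 ± 0.36 (SD, n = 3) differed by less than the spread among deleted libraries. Col3a1 to Col1a1, chains of separate trimers, was 1.74 to 1.89 in controls and 2.13, 1.57 and 2.07 in the deleted libraries, and Col5a1 to Col5a2 was 0.967 to 1.11 and 0.813, 1.03 and 1.04.

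**Figure D4:**
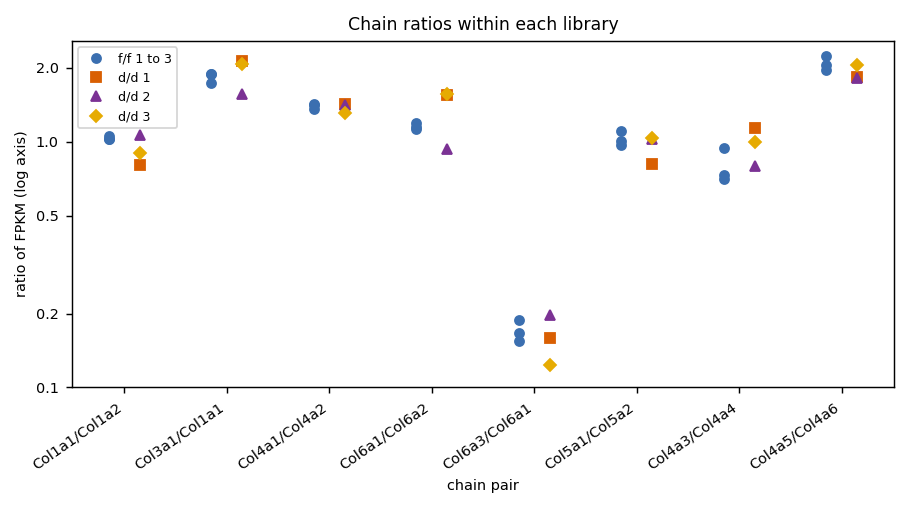
Ratio of FPKM (log axis) of pairs of collagen chain genes in each library. Col4a1/Col4a2 stays between 1.31 and 1.43 in all 6 libraries, while Col6a1/Col6a2 is about 1.55 in d/d 1 and d/d 3 and 0.933 in d/d 2.

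The 11 chains under the filter ranged from 0 to 1.21 FPKM. They were the cartilage chains Col2a1, Col9a1, Col9a3, Col10a1 and Col11a2, together with Col6a5, Col19a1, Col22a1, Col24a1, Col25a1 and Col28a1. Col2a1, the main cartilage collagen, was listed at 0 in control replicate 2 and Nat10-deleted replicate 2 and at no more than 0.058 in the others. Col22a1, a chain of tissue junctions, was at 0.0727 to 0.155 in 5 libraries and at 0.787 in Nat10-deleted replicate 2. No fold is given at these levels.

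Genes that act on collagen were then examined in lists. Enzymes and chaperones of chain modification and folding had 19 of 20 members tested, of which 15 were lower and 4 higher on average (background 43.4% lower) and none was at an unadjusted p under 0.05. Leaving out Nat10-deleted replicate 2 took that count to 9 lower and 1 higher (background 6.57% lower) and the median log2 change from -0.13 to -0.32. Like the fibrillar chains, the list median was low, high and low in the deleted libraries (-0.32, 0.32 and -0.33 by number), against -0.10 to 0.04 in controls. In 10 of the 19, replicates 1 and 3 lay below and replicate 2 above every control (background 6.77%). Secretion and propeptide removal had 12 of 13 tested, 10 lower and 2 higher (background 43.4% lower), with none at an unadjusted p under 0.05. Leaving out replicate 2 gave 4 lower and 1 higher at that level (background 6.57% lower, 13.7% in either direction). In that setting limma called 1 of them at an adjusted p of 0.05 (background 0.0949%). This was Pcolce, an enhancer of procollagen processing, named after its values were seen. Pcolce had 95.9, 98 and 105 FPKM in controls and 56.6, 127 and 51 in deleted uteri, with a log2 change of -0.47, or -0.88 if replicate 2 is left out. Among 4 tested lysyl oxidases all were lower on average, and 1 of them, the elastic-fibre enzyme Loxl1, was at an unadjusted p under 0.05 (background 2.3% lower). Loxl1 had 23.4, 31.5 and 28.7 FPKM in controls and 15.3, 25.5 and 11.4 in deleted uteri (log2 change -0.71, unadjusted p 0.0305). That p was 0.0754 to 0.097 when control replicate 2 or 3 or Nat10-deleted replicate 1 or 3 was left out, and 0.0759 with the GC and length correction.

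Proteins that bind fibres or basement membranes had 17 of 19 tested members lower on average, with 10 at an unadjusted p under 0.05, all lower, and a median log2 change of -0.36. Over all genes tested, 43.4% were lower on average, 2.3% were lower at that level and the median was 0.03. In contrast to the fibrillar chains, their list median was below the control range in all 3 deleted libraries (-0.39, -0.30 and -0.20, against -0.07 to 0.06). Mfap4, a microfibril-associated protein, had 206, 147 and 177 FPKM in controls and 87.8, 129 and 63.7 in deleted uteri, a log2 change of -0.96. Nid2, a nidogen that bridges laminin and type IV collagen, had 36.5, 37.4 and 44.3 in controls and 22.5, 31.7 and 26.9 in deleted uteri (-0.54). Mfap5 had 68, 60.1 and 70.8 in controls and 51.5, 40.4 and 51.1 in deleted uteri (-0.47). In these 3 genes no deleted library overlapped a control.

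Collagen receptors had 8 of 9 tested members lower (background 43.4%), with 4 at an unadjusted p under 0.05, all lower (background 2.3%), and a median log2 change of -0.20, or -0.32 if replicate 2 is left out. Mrc2, an uptake receptor for collagen fragments, had 35.3, 32.1 and 33.7 FPKM in controls and 18.9, 26.6 and 25 in deleted uteri (log2 change -0.52). Itga1, the alpha subunit of a collagen-binding integrin, had 14.2, 13.8 and 14.4 in controls and 9.49, 11.6 and 10.6 in deleted uteri (-0.39). Ddr2, a receptor kinase activated by fibrillar collagen, had 49.5, 47.5 and 56.8 in controls and 41.3, 41.1 and 40.5 in deleted uteri (-0.31), with an unadjusted p of 0.0513 or 0.0903 if control replicate 1 or 3 is left out. The groups did not overlap for any of the 3, and Nat10-deleted replicate 2 sat beside the other deleted libraries. Genes of collagen degradation had 8 of 12 lower and none at an unadjusted p under 0.05.

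Of 18 listed genes of TGF-beta, a pathway known to raise collagen transcription, 16 were tested, and Ccn1 and Ccn2 had no value under the symbols searched. Of those tested, 11 were lower and 5 higher on average (background 43.4% lower). At an unadjusted p under 0.05 there were 4, all lower (background 2.3%). Their median log2 change was -0.09, or -0.03 if replicate 2 is left out. Tgfb3, a ligand, had 34.1, 29.5 and 32.5 FPKM in controls and 21.5, 20.6 and 25.2 in deleted uteri (log2 change -0.50). Ltbp4 and Ltbp3, which hold latent ligand in the matrix, had log2 changes of -0.62 and -0.36. Leaving out control replicate 3 or Nat10-deleted replicate 1 brought the unadjusted p to 0.0547 and 0.0553 for Ltbp4 and to 0.0679 and 0.0511 for Ltbp3, whose change was -0.22 with the GC and length correction (unadjusted p 0.0507). None of the genes in these lists passed an adjusted p of 0.05 in limma with all libraries at equal weight. With array quality weights in limma, Mfap4, Nid2, Mrc2, Itga1 and Tgfb3 (each at 0.0386), Ltbp4 (0.0396) and Loxl1 (0.0466) passed it. Mfap5, Ddr2 and Ltbp3 did not.

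**Figure D5:**
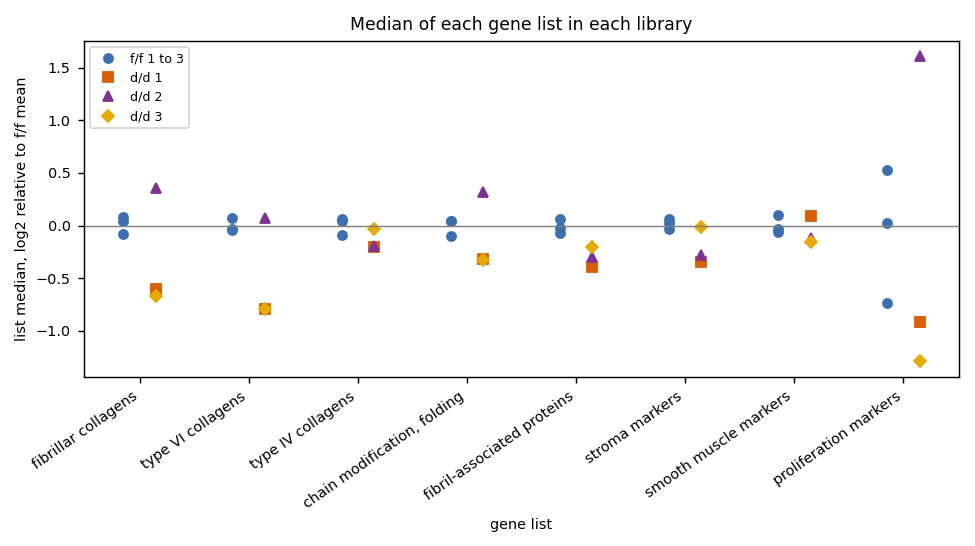
Median of each gene list in each library, as log2(FPKM + 1) relative to the mean of the 3 floxed controls. Fibrillar collagens, chain modification genes and proliferation markers have d/d 2 over d/d 1 and d/d 3, whereas stroma markers have d/d 1 and d/d 2 under d/d 3.

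Markers of the cell types in the organ were set beside these values. Markers of stroma (15 of 15), smooth muscle (10 of 10), epithelium (13 of 13) and endothelium (12 of 12) all passed the filter. The stroma list, which shares Dcn and Lum with the fibre-binding proteins, had a summed level of 2115 to 2321 FPKM in controls, against 2065, 1690 and 2199 in the deleted libraries by number. Of its 15 members, 14 were lower on average and 5 were lower at an unadjusted p under 0.05 (background 43.4% and 2.3%). Its list median was -0.35, -0.28 and -0.01 in the deleted libraries by number, against -0.03 to 0.06 in controls, so that the sum and the median name different libraries as the lowest. Dcn alone gave 1160, 646 and 1197 FPKM of the sums of the deleted libraries. Smooth muscle markers summed to 4212 to 4834 in controls and 3928 to 4980 in deleted uteri, endothelial markers to 439 to 506 and 394 to 496, and epithelial markers to 936 to 1013 and 908 to 1218. Of the endothelial markers 11 of 12 were lower on average, with 3 not overlapping and lower (background 4.6%), and 1 was lower at an unadjusted p under 0.05. Of the epithelial markers 9 of 13 were higher on average, with 5 not overlapping and higher (background 6.12%), and 3 were higher at an unadjusted p under 0.05 (background 2.68%). Smooth muscle markers were 5 lower and 5 higher. The part of these cell types in the collagen values was not tested. Of 19 tested proliferation markers, 19 were highest in Nat10-deleted replicate 2, with list medians of -0.92, 1.61 and -1.29 in the deleted libraries by number, against -0.74 to 0.53 in controls. The part of proliferation in the collagen values was not tested. Blood markers summed to 852 to 5582 in controls and 709 to 1723 in deleted uteri, and fat markers to 2 to 76.3 and 2.11 to 17.9. Cartilage and bone markers summed to 5.2 to 6.92 in controls and 5.31 to 6.26 in deleted uteri, with Ibsp at 0 in all 6 libraries and Bglap and Matn3 at 0 in 5.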

How the data were processed

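Values are FPKM, deposited by the authors as 1 table per library. The unit was inferred from the values, and from Cufflinks 2.2.1, which the submitters' processing notes name with HISAT2 2.2.1 and mm10. Annotation, gene filter and strand setting are not given in the sources used here, and no counts were used. The 6 tables were joined with Python 3.11.15 (pandas 2.3.3). Genes with at least 1 FPKM in at least 3 libraries (12640) entered a limma fit (version 3.58.1, R 4.3.3) on log2(FPKM + 1), with an eBayes trend, group as the only term, and Benjamini-Hochberg adjustment over all genes tested. The fit was run on simulated data with independent normal values and the same spread in both groups. That run does not cover the larger spread of the deleted libraries here. With 3 libraries against 3, an exact two-sided permutation test cannot go below 0.1, so none is given. Lengths and GC content come from GENCODE M21 (GRCm38), which held 99.62% of the identifiers, and promoters from RefSeq. Protein sequences were not used here. Named genes were Nat10, chains with a control mean of at least 10 FPKM or whose groups did not overlap or with an unadjusted p under 0.05, and up to 3 members of each pathway list by smallest p at that level. Other chains were named for completeness. Members and lists were chosen with earlier results of these data known. Alternatives were other scalings, filters and pseudocounts, no trend, robust eBayes, array weights, a replicate block, correction for GC content and length, and leaving out each library.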

Additional observations from a re-analysis of the deposited data

How the results depend on the processing

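The median log2 change of the tested collagen chains was -0.31 and stayed below 0 under every alternative run. With all 6 libraries the alternatives gave -0.18 (GC content and length correction) to -0.50 (array quality weights), and leaving out 1 library gave -0.47 to -0.17. No gene was called with all libraries (630 at an unadjusted p under 0.05) or under the other alternatives, except that array quality weights called 316, of which 11 were collagen chains, and leaving out Nat10-deleted replicate 2 called 12, so that leaving out 1 library gave 0 to 12. The array weights were 3.74, 0.224 and 0.451 for Nat10-deleted replicates 1, 2 and 3 and 1.15 to 1.92 for controls. Genes at an unadjusted p under 0.05 numbered 3730 with these weights, 352 to 1726 when 1 library was left out (359 and 353 without control replicate 1 or 3, 352, 1726 and 1403 without Nat10-deleted replicate 1, 2 or 3), and 886 without the low-value filter. They were 291 lower and 339 higher with all libraries, 414 and 259 with quantile normalization, 376 and 248 with centring on medians, 399 and 232 with upper-quartile scaling, and 316 and 223 with the GC content and length correction. The change of Col4a6 was -0.09, 0.01 after that correction and 0 without Nat10-deleted replicate 2, within leave-one-out values of -0.15 to 0; the cause was not tested. The replicate number as a block left the collagen median at -0.31 and called 0 genes, with 726 at an unadjusted p under 0.05. Deviations from the group means had correlations of -0.341, -0.029 and 0.1 in same-numbered libraries and -0.244 to 0.273 in the other pairs. With 3 libraries per group, each centred on its own mean, these values cannot decide whether the numbers pair the libraries. Absolute depth is unknown, so chains under about 1 FPKM cannot be compared.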
